A study of Mus musculus with 20 samples.

Results

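The genes described here encode protein components of the spliceosome and the SR proteins. They were chosen by a rule on symbols, with earlier results of these data known. The rule takes every symbol beginning with Snrp, Sf3a, Sf3b, Srsf, Prpf, Lsm (1 to 8) or U2af followed by its member letter or number. It gave 54 genes of the 23309 gene symbols in the data, each at 1 locus. By role they are 8 Sm ring proteins, 4 proteins specific to the U1 or U2 particle (Snrpa, Snrpc, Snrpa1 and Snrpb2), 8 SF3a and SF3b subunits, 3 U2AF factors, 7 LSm ring proteins (Lsm1 to Lsm7), 13 PRPF factors and 11 SR proteins.

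The spliceosome is assembled on each intron from small nuclear ribonucleoproteins (snRNPs), particles made of a small RNA, a shared ring of Sm or LSm proteins and particle-specific proteins. The U1 particle reads the 5′ splice site, the U2AF factors and the U2 particle with its SF3a and SF3b complexes read the 3′ splice site and the branch point, and the tri-snRNP, with PRPF proteins at its core, brings the catalytic parts. SR proteins bind exons and recruit these parts. A fully grown mouse oocyte stops transcription before it matures, so from the germinal vesicle stage until the embryo's genome is activated at the 2-cell stage mRNA levels are set by storage, polyadenylation and decay, and splicing resumes with the new transcripts.

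The data are gene-level FPKM values (fragments per length of transcript and per depth of the library, so that levels of different genes can be set side by side per length) from RNA-seq of oocytes and embryos of ICR mice. In the Btg4 experiment, wild type and Btg4-/- were each sampled at 4 stages: the immature germinal vesicle (GV) oocyte, the ovulated oocyte in metaphase II (MII), the zygote and the 2-cell embryo, with 2 libraries in each of the 8 groups. The Erk experiment has 4 libraries, 1 each of GV and MII oocytes of wild type and of the Erk-/- label. Each library was made from 60 oocytes or embryos of females 21 to 23 days old that had been injected with PMSG and hCG, and mated where embryos were collected, and mRNA was purified before sequencing. The labels give no allele, promoter or Cre line for either genotype and name no separate animals or pools behind the 2 libraries of a group. The p-values therefore reflect library spread alone, which may be technical. BTG4 is an adaptor that brings the CCR4-NOT deadenylase to maternal mRNAs during maturation.

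Depth, estimated from the width of the deposited intervals, ranged over 3670000 to 6820000 fragments for the 16 Btg4-experiment libraries and 7760000 to 10940000 for the 4 others. All 10 oocyte markers listed (Zp1 to Zp3, Gdf9, Bmp15 and others) were above 1 FPKM in every library except the wild-type 2-cell ones, where Figla is listed at 0. The targeted transcript goes against the Btg4-/- label at some stages, so these libraries are called labelled Btg4-/- throughout. Btg4 was at 1980.0 and 1881 FPKM at GV under that label against 1450.0 and 1673 in wild type (adjusted p = 0.138), lower at MII (172 and 191 against 415 and 406) and in the zygote (139 and 164 against 610.3 and 559.5), and higher at the 2-cell stage (3514 and 3632 against 1147 and 964). FPKM over a whole locus does not show whether the transcript is intact. In the Erk experiment, Mapk3 (ERK1) was 52.3 FPKM at GV and 34.3 at MII in the libraries labelled Erk-/-, against 333 and 25.7 in wild type. The MII value goes against the label, so these are called labelled Erk-/- throughout.

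Of the 54 genes, 52 reached a mean of 1 FPKM in at least 1 of the 8 groups and were tested with the other genes above that level, 12311 in all. The 2 left out were Prpf40b, whose highest group mean was 0.716 FPKM, and Srsf12, whose highest was 0.0459 FPKM. Together the members took 1.10% of the summed FPKM in wild-type GV oocytes, 1.02% at MII, 0.753% in the zygote and 0.853% at the 2-cell stage. In the libraries labelled Btg4-/- the shares were 1.19%, 0.799%, 0.771% and 1.53%. Short ring proteins led: over the 16 libraries Snrpg (SmG) averaged 491 FPKM, Lsm3 379 and Sf3b5, the smallest SF3b subunit, 307. The other roles were led by Snrpc (the U1 particle's C protein, which steadies the pairing of U1 with the 5′ splice site) at 165, the SR protein Srsf2 at 122, U2af2 at 106 and Prpf38a at 78.0 FPKM. For 9 to 15 members per library the deposited FPKM lies above its own deposited interval, always in the same direction, and Snrpe, Snrpg, Snrpd1, Snrpd3, Lsm7 and Sf3b5 are among them in all 20 libraries. Absolute levels of these genes are therefore uncertain, and the comparisons below were repeated on the interval midpoints.

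**Figure D1:**
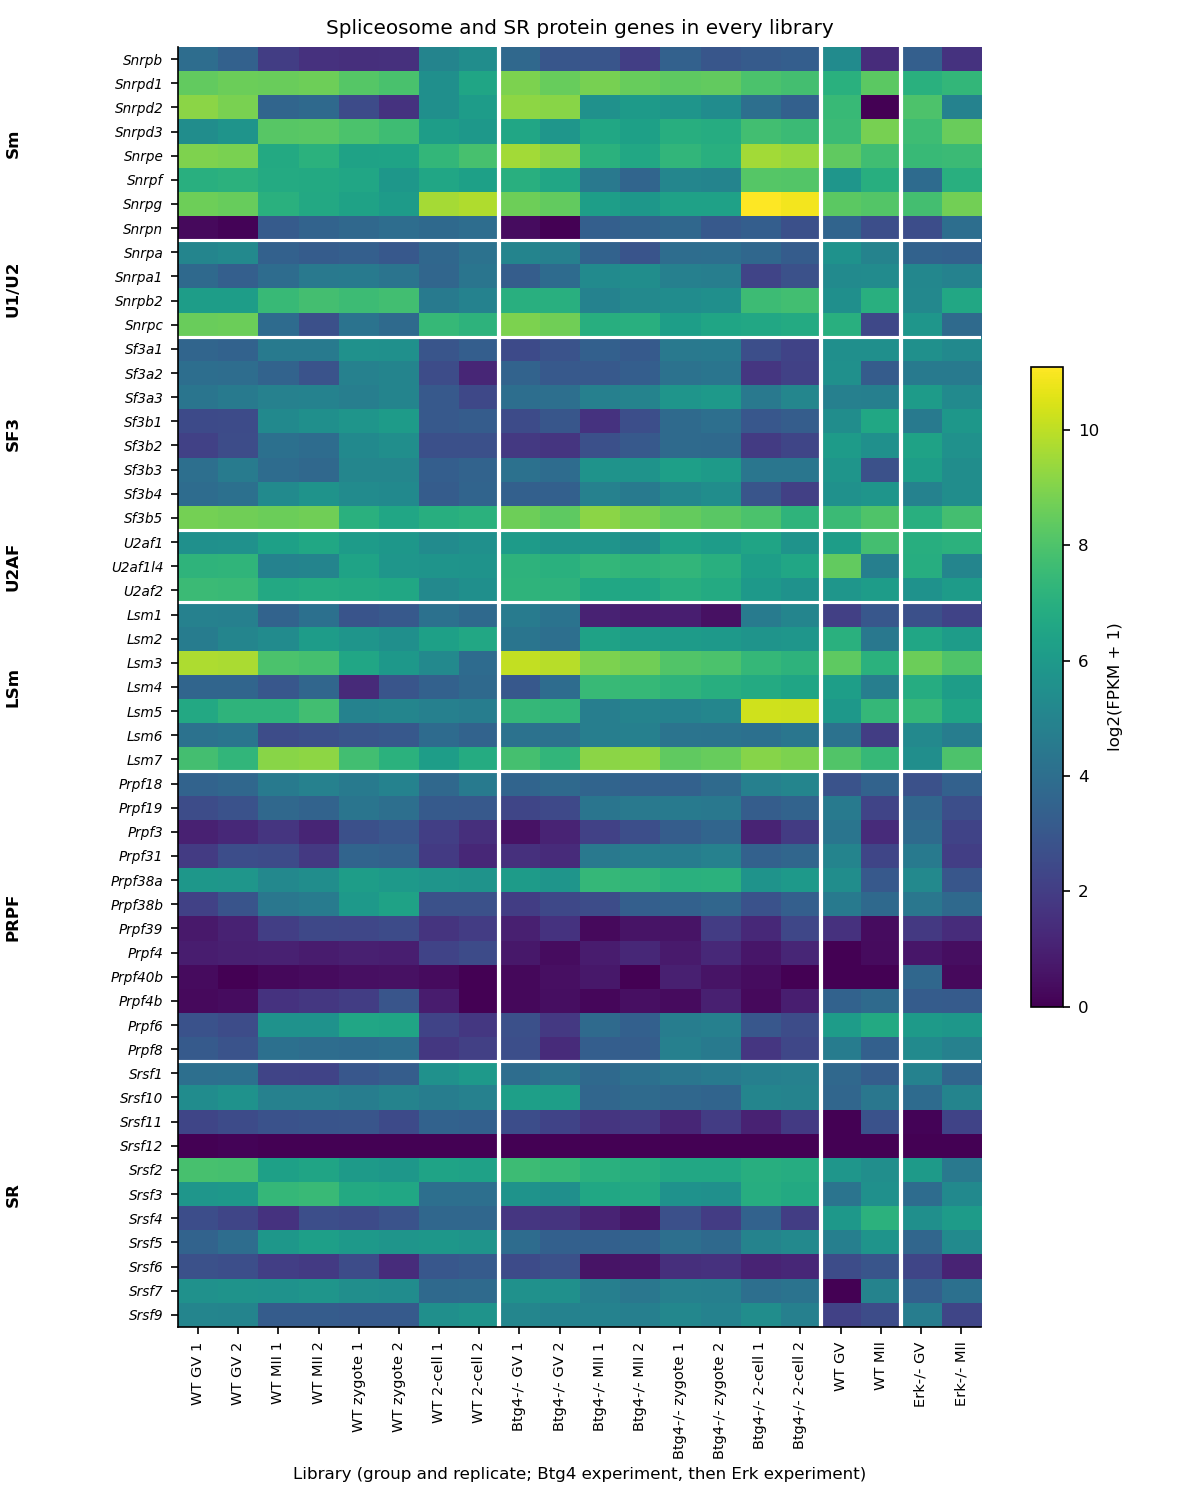
Level of 53 of the 54 members in every library, as log2(FPKM + 1). Rows are genes grouped by role, columns are the 16 libraries of the Btg4 experiment followed by the 4 of the Erk experiment, and white lines separate roles and genotypes; the brightest cells are Snrpg and Lsm5 in the 2-cell libraries labelled Btg4-/-, and Srsf12 is at or near 0 throughout.

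The first question was how these mRNAs behave in wild type from GV to MII, when maternal mRNAs are cleared or recruited and none are made. The members split: 21 of 52 rose (40.4%; background 25.2% of all genes tested) and 17 fell (32.7%; background 28.5%), by limma with Benjamini-Hochberg adjustment over 12311 genes at 0.05. The median change was 0.07 on the log2(FPKM + 1) scale, beside -0.02 over all genes. Of the 12 PRPF factors tested 8 rose and 1 fell, and of the 8 SF3 subunits 4 rose and 1 fell, while of the Sm proteins 2 rose and 4 fell and of the 10 SR proteins tested 2 rose and 4 fell. The LSm proteins had 3 in each direction of 7, but 1 that rose without wild-type GV library 1 or MII library 2. Of the 4 U1 and U2 proteins 2 fell and 1 rose (2 rose without MII library 1), and of the 3 U2AF factors 2 fell and 1 rose (0 rose without MII library 2). The single PRPF loss did not pass without MII library 1, nor the single SF3 loss without GV library 2 or MII library 2.

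The 2 largest losses were those of Snrpc and Snrpd2. Snrpc (chr17:27977032-27988912, mm9) was 374 and 391 FPKM in the 2 wild-type GV libraries and 13.6 and 5.44 at MII, a change of -5.31 ± 0.28 on the log2 scale (SE), adjusted p = 1.04e-08. Snrpd2 (SmD2, chr7:19735187-19738075, mm9) went from 563 and 462 to 11.2 and 12.9 FPKM, a change of -5.29 ± 0.31 on the log2 scale (SE), adjusted p = 1.97e-08. In both genes every MII library lay far below every GV library. Here and below, such separation largely follows from naming the largest changes that passed, and it adds no support to the calls. U2af1l4, a paralog of the factor that reads the 3′ splice site AG, fell from 147 and 154 to 29.0 and 31.1 FPKM (-2.28). Snrpe (SmE) fell from 493 and 465 to 105 and 134 (-2.00), and Snrpb (SmB) from 14.8 and 9.71 to 2.99 and 1.97 (-1.92). Srsf1, an SR protein that promotes 5′ splice site use, fell from 15.6 and 16.1 to 3.79 and 3.70 FPKM (-1.82).

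Prpf6 (chr2:181336024-181390366, mm9), which bridges the U5 and U4/U6 parts of the tri-snRNP, was 5.83 and 4.93 FPKM at GV and 50.0 and 48.6 at MII, a change of 2.98 ± 0.28 on the log2 scale (SE), adjusted p = 1.32e-06. Sf3b1 (chr1:55042013-55084322, mm9), the SF3b subunit that holds the branch point duplex, went from 4.56 and 4.80 to 37.8 and 44.7 FPKM, a change of 2.89 ± 0.29 on the log2 scale (SE), adjusted p = 2.46e-06. GV and MII do not overlap in either gene. Snrpd3 (SmD3) rose from 42.7 and 52.9 to 299 and 304 FPKM (2.64) and Srsf5 from 10.4 and 14.4 to 57.9 and 75.1 (2.34). Snrpn, the imprinted relative of SmB, rose from 0.215 and 0.0743 to 8.18 and 10.6 FPKM (3.18), although its GV values are close to 0.

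Where mRNA is taken by its poly(A) tail, a longer tail and more mRNA cannot be told apart in these values; how mRNA was purified is not given in the sources used here. In bulk samples, fewer cells of a kind and less RNA per cell cannot be told apart. Markers of other cells moved with this step: the summed level of 13 granulosa and cumulus markers was 76.97 to 89.45 FPKM in the 4 GV libraries (7 or 8 of 13 at 1 FPKM or more) and 5.07 to 12.46 in the 4 MII libraries (1 to 4 of 13), with Foxl2 at 0 in all MII libraries. Blood cell markers moved the other way in wild type: the sum over 6 genes was 2.451 and 0.7382 FPKM at GV (1 and 0 of 6 at 1 FPKM or more) and 84.96 and 50.3 at MII (3 and 2 of 6), and of the 3 tested 2 rose and 0 fell, with a median of 3.03 on the log2 scale. In every other library at most 1 of these 6 was at 1 FPKM or more. Blood cell genes could therefore pass the filter through wild-type MII alone, where they are high. Here and below, their calls and medians are partly built in and add no support. Of the 10 oocyte markers 3 rose and 4 fell. The part of these markers in the result was not tested.

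Maternal mRNAs that are recruited during maturation often carry a U-rich cytoplasmic polyadenylation element shortly before the AAUAAA-type hexamer. The last 100 bases of 1 annotated transcript per gene (GENCODE M21, GRCm38; best APPRIS rank, then longest) were searched on the sense strand for TTTTAT or TTTTAAT. The element was present in 7 of the 21 members that rose from GV to MII (33.3%), in 1 of the 17 that fell (5.88%), in 3 of the 14 that did not pass (21.4%) and in 17.1% of 19287 symbols with such a transcript. A hexamer (AATAAA or ATTAAA) in the last 40 bases was present in 90.5%, 70.6% and 64.3% of the same members and in 71.1% of the symbols. These are descriptions of annotated ends, which may differ from those used in oocytes, and a match is not a shown binding site. The element was counted wherever it lay relative to a hexamer. The symbols were not limited to genes expressed here, and the share among all genes that rose was not counted. The 30-base sites of 3 of the 6 genes with the largest gains, and that of the single gene that fell, are shown 5′ to 3′, with the element and any hexamer within the site in capitals.
Prpf6 (chr2:181655631-181655660, plus strand): cttttactcATTAAAggtTTTTATagagtt
Sf3b1 (chr1:54985219-54985248, minus strand): tattgtatTTTTAATatttgttgtatggtg
Snrpd3 (chr10:75537340-75537369, plus strand): ttggtttaTTTTATtgtattAATAAAtggt
Lsm3 (chr6:91522596-91522625, plus strand): aaATTAAAtttgatgtttccttTTTTATta
In Prpf6, Snrpd3 and Lsm3 the element lies 6, 28 and 2 bases from the annotated transcript end and a hexamer stands in the same site. The element comes before that hexamer in Snrpd3 and after it in Prpf6 and Lsm3. In Sf3b1 it lies 65 bases from the end, with no hexamer in the site. Lsm7, Prpf8 and Sf3a1 also rose and carry the element, which in Prpf8 follows the hexamer of its site. In Lsm7 the element overlaps the hexamer, and Sf3a1 has no hexamer in its last 40 bases.

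From MII to the zygote fewer members passed. In wild type 13 of 52 rose (background 20.5%) and 9 fell (background 8%), with a median of -0.04 beside 0.22 over all genes. Of the 13 that rose 7 were PRPF factors (7 of 12 rose, 0 fell, also 0 at an unadjusted p under 0.05). Of the 9 that fell 4 were LSm proteins (4 of 7 fell, 0 rose, also 0 unadjusted), 2 were Sm proteins, 2 were SR proteins and 1 was an SF3 subunit. Prpf38b rose from 20.0 and 23.6 to 63.8 and 83.7 FPKM (1.71 ± 0.31 on the log2 scale (SE), adjusted p = 0.00165), and Sf3b2, which contacts the pre-mRNA upstream of the branch point, from 15.9 and 14.1 to 36.8 and 44.1 (1.37). Lsm5 fell from 149 and 211 to 29.0 and 32.3 FPKM (-2.50 ± 0.19 on the log2 scale (SE), adjusted p = 3.00e-06), Sf3b5 from 390.4 and 411 to 129.6 and 92.6 (-1.86), Lsm7 from 551 and 596 to 212 and 136 (-1.75) and Lsm3 from 247 and 227 to 92.1 and 59.0 (-1.67). In each of these 4 genes both zygote libraries were below both MII libraries. Snrpd2 fell further, to 4.72 and 2.11 FPKM (-1.63), and Lsm1 fell from 10.5 and 16.2 to 6.31 and 7.46 (-0.84). Sf3a2, a subunit of the U2 particle's SF3a complex, rose from 10.5 and 6.22 to 28.5 and 31.2 FPKM (1.76), Prpf3, of the U4/U6 part of the tri-snRNP, from 2.30 and 1.24 to 5.46 and 6.97 (1.40) and Prpf31 from 4.82 and 2.60 to 10.9 and 9.74 (1.31). Of these, Lsm1 did not pass without wild-type MII library 2 or either zygote library, Prpf3 without MII library 2 or zygote library 2, and Prpf31 without MII library 2. This step is the least firm: fitted on the 4 libraries alone it gave 5 higher and 3 lower, and with median-of-ratios scaling, which moved the all-gene median from 0.22 to 0.04, it gave 11 higher and 16 lower. Without wild-type zygote library 2 the members' median was 0.01. The PRPF count was 3 without wild-type MII library 2 or zygote library 2, 4 without MII library 1 and 2 in the fit of the 4 libraries, where the LSm count was 1. The Sm count was 1 without MII library 1 or zygote library 2 and 6 with median-of-ratios scaling, and the SR count 1 without MII library 2 or zygote library 2. Marker levels moved with this step too: the blood cell sum fell from 84.96 and 50.3 to 2.255 and 0.2242 FPKM, with 2 of 3 tested genes lower and a median of -3.03. That direction is partly built in by the filter, since blood cell genes could pass it through wild-type MII alone. The sum over 7 sperm genes was 0.9112 and 0.6676 FPKM at MII (0 of 7 at 1 FPKM or more) and 7.202 and 4.816 in the zygote (1 of 7, Prm2), 1 of 2 tested genes was higher, the median was 1.32, and Prm1, Tnp1 and Tnp2 are listed at 0 in these 4 libraries. Their part in the result was not tested.

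At the 2-cell stage, when the mouse embryonic genome becomes active, more members fell than rose. In wild type 15 of 52 rose from zygote to 2-cell (background 27.1%) and 23 fell (44.2%; background 30.2%), with a median of -0.46 beside -0.06 over all genes. Of the SF3 subunits 7 of 8 fell and 0 rose (also 0 unadjusted), and of the PRPF factors 8 of 12 fell and 1 rose, while 4 of 8 Sm and 4 of 10 SR proteins rose. The SR count was 2 without wild-type zygote library 2. Of the 10 oocyte markers 7 fell at this step and 0 rose (also 0 at an unadjusted p under 0.05), with a median of -1.60 on the log2 scale; their part in the result was not tested. Prpf6 went from 94.3 and 88.4 FPKM in the zygote to 3.71 and 2.46 at 2-cell, a change of -4.52 ± 0.28 on the log2 scale (SE), adjusted p = 3.18e-08. Sf3b1 went from 53.6 and 66.7 to 7.47 and 8.30 FPKM (-2.78), Sf3b2 from 36.8 and 44.1 to 5.49 and 5.51 (-2.67) and Sf3a2 from 28.5 and 31.2 to 5.03 and 1.29 (-3.05). The 2-cell values of Prpf6 are below its GV values and those of Sf3b1 above its GV values; 2-cell was not tested against GV. Prpf38b (-3.47) and Snrpb2, an RNA-binding protein of the U2 particle (-2.92), also fell.

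Several genes that had fallen at MII rose again. Snrpd2 rose from 4.72 and 2.11 to 44.6 and 67.9 FPKM, a change of 3.73 ± 0.31 on the log2 scale (SE), adjusted p = 4.32e-07. Snrpc rose from 17.7 and 13.1 to 171 and 141 FPKM (3.27) and Snrpb from 1.84 and 1.92 to 30.9 and 42.0 (3.68). Snrpg rose from 81.9 and 66.8 to 771 and 864 FPKM (3.45), beside 395 and 359 at GV, a pair of stages not tested against each other. Among SR proteins, Srsf1 rose from 7.17 and 8.61 to 47.9 and 63.0 FPKM (2.66) and Srsf9 from 7.83 and 7.94 to 45.2 and 50.3 (2.45). In all of these the 2-cell libraries lie above the zygote ones without overlap.

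The genotype comparison sets libraries labelled Btg4-/- against wild type at each stage. At GV few members were called, 3 of 52 against a background of 7.9%: 2 were higher (background 1.45%) and 1 was lower (background 6.46%), with a median of -0.07 beside -0.12 over all genes. The members' median was 0.10 with median-of-ratios scaling and 0.05 with a length correction. Of the 10 oocyte markers 4 were lower and 0 higher (6 and 1 at an unadjusted p under 0.05), with a median of -0.51. Their part in the result was not tested. Snrpb2 (chr2:142888805-142897788, mm9) was 126 and 127 FPKM under the Btg4-/- label and 71.8 and 70.3 in wild type (log2 difference 0.82 ± 0.16 (SE), adjusted p = 0.00818). Srsf10, an SR-related splicing repressor, was 74.5 and 73.2 against 41.0 and 49.9 FPKM (log2 difference 0.69 ± 0.15 (SE), adjusted p = 0.0174), and Sf3a1 was 4.65 and 6.21 against 11.1 and 10.2 (log2 difference -0.87 ± 0.21 (SE), adjusted p = 0.0281). The libraries of the 2 genotypes do not overlap in these 3 genes. A fit of the 4 GV libraries alone called none of them, median-of-ratios scaling gave 4 higher and 0 lower, and leaving out single GV libraries gave 0 or 1 in each direction (0 higher without wild-type GV library 1; 0 lower without either wild-type library or without library 2 labelled Btg4-/-).

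At MII the members differed widely. Of 52, 39 passed (background 52.4%): 15 were higher in the libraries labelled Btg4-/- (28.8%; background 29.1%) and 24 lower (46.2%; background 23.3%), with a median of -0.16 beside 0.09 over all genes. By role, SR proteins had 3 higher and 7 lower of 10, PRPF factors 4 higher and 6 lower of 12, and SF3 subunits 1 higher and 4 lower of 8. The LSm proteins had 3 higher and 2 lower of 7, and the Sm proteins 1 higher and 3 lower of 8. Of the U1 and U2 proteins 2 of 4 were higher and 1 lower, and of the U2AF factors 1 of 3 in each direction. Of these counts, the Sm proteins had 2 higher without MII library 2 labelled Btg4-/-, the U1 and U2 proteins had 1 higher without wild-type MII library 1, and the U2AF factors had 0 lower without MII library 2 of either genotype. With a length correction the SF3 subunits had 2 higher, the U1 and U2 proteins 1 higher and 2 lower, and the U2AF factors 2 lower.

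The member with the largest difference was Lsm4, a subunit of both LSm rings: one acts on U6 and the other in cytoplasmic decay of deadenylated mRNA. Lsm4 (chr8:73197130-73202651, mm9) was 179 and 169.5 FPKM under the Btg4-/- label at MII and 6.97 and 11.6 in wild type (log2 difference 4.12 ± 0.42 (SE), adjusted p = 3.36e-06). Snrpc was 124 and 128 against 13.6 and 5.44 FPKM (log2 difference 3.71 ± 0.28 (SE), adjusted p = 2.75e-07). In both genes every library labelled Btg4-/- stood far above both wild-type libraries. Prpf31, which holds the U4/U6 part of the tri-snRNP, was 21.1 and 25.3 against 4.82 and 2.60 FPKM (2.40), U2af1l4 161 and 147 against 29.0 and 31.1 (2.32), Lsm6 25.6 and 27.5 against 4.996 and 5.46 (2.15) and Snrpd2 47.8 and 65.2 against 11.2 and 12.9 (2.13).

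Lower in the libraries labelled Btg4-/- at MII were Sf3b1, at 2.12 and 5.27 against 37.8 and 44.7 FPKM (log2 difference -3.25 ± 0.29 (SE), adjusted p = 9.21e-07), and other members. Lsm1, the subunit that sets the cytoplasmic decay ring apart from the nuclear one, was 1.10 and 0.843 against 10.5 and 16.2 FPKM (-2.84). Snrpf (SmF) was 21.2 and 11.1 against 108 and 107 (-2.72), Lsm5 25.6 and 29.7 against 149 and 211 (-2.64) and Srsf5 9.59 and 10.3 against 57.9 and 75.1 (-2.62). None of these libraries overlap between genotypes. The LSm genes thus lay on both sides, and of the Sm genes Snrpd2 was higher while Snrpf, Snrpd3 and Snrpg were lower.

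Blood cell markers moved with this comparison: their summed level over 6 genes was 84.96 and 50.3 FPKM in wild-type MII, mostly Hba-a1, and 1.528 and 0 in MII labelled Btg4-/-, while Ptprc, a marker of white cells, is listed at 0 in every library. Of the 3 tested 2 were lower under the label, with a median of -3.03. These genes could pass the filter through wild-type MII alone, so the calls add no support. Of the 10 oocyte markers 5 were higher and 4 lower. Their part in the result was not tested.

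**Figure D2:**
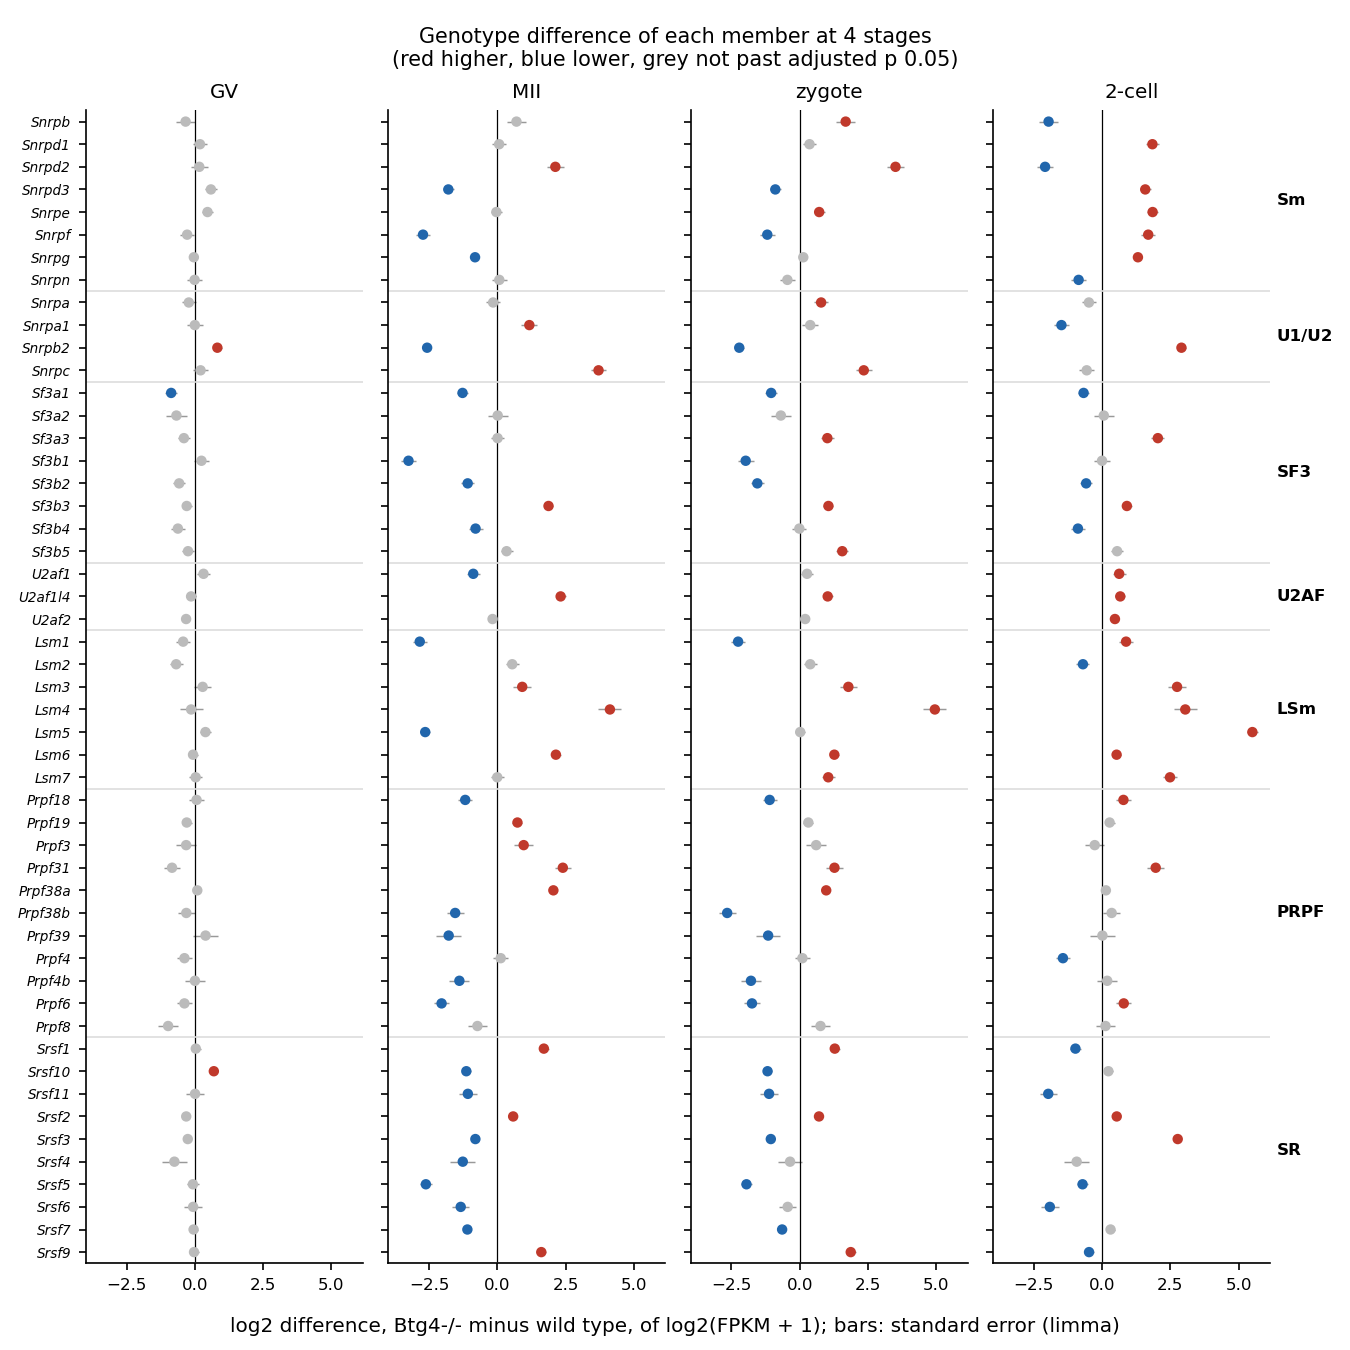
Log2 difference between the libraries labelled Btg4-/- and wild type for 51 of the 52 members tested, at GV, MII, zygote and 2-cell (left to right), with standard errors from limma; rows are grouped by role, red and blue mark members higher and lower at adjusted p 0.05 and grey those that did not pass. Nearly all points are grey at GV, and the LSm genes stand to the right at the 2-cell stage, except Lsm2.

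In the zygote 18 of 52 members were higher (34.6%; background 24.4%) and 18 lower (34.6%; background 23.3%), 36 in all against a background of 47.7%, with a median of 0.16 beside 0.01 over all genes; the sign of this median turned with a correction for transcript length (-0.11). The LSm proteins had 4 higher and 1 lower, the Sm proteins 3 and 2, SF3 subunits 3 and 3, PRPF factors 2 and 6 (4 higher with a length correction), and SR proteins 3 and 5. Of the 10 oocyte markers 6 were higher and 2 lower, with a median of 1.21; their part in the result was not tested. Lsm4 was 148 and 122 FPKM under the Btg4-/- label and 1.53 and 6.64 in wild type (log2 difference 4.95 ± 0.42 (SE), adjusted p = 9.65e-07). Snrpd2 was 54.0 and 40.8 against 4.72 and 2.11 FPKM (log2 difference 3.51 ± 0.31 (SE), adjusted p = 1.26e-06), and Snrpc 73.8 and 89.8 against 17.7 and 13.1 (2.34). In these genes every library labelled Btg4-/- was above every wild-type one. Srsf9 (33.8 and 29.2 against 7.83 and 7.94 FPKM), Lsm3 (269 and 243 against 92.1 and 59.0) and Snrpb (9.91 and 6.81 against 1.84 and 1.92) were also higher.

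Among the members lower in the zygote, Prpf38b was 9.88 and 11.7 against 63.8 and 83.7 FPKM (log2 difference -2.66 ± 0.31 (SE), adjusted p = 1.66e-05), Snrpb2 40.9 and 44.8 against 194 and 212 (-2.22) and Sf3b1 13.4 and 15.5 against 53.6 and 66.7 (-1.98). Lsm1 and Srsf5 were again lower, with differences of -2.26 and -1.95. MII and zygote share no library, but their calls come from the same fit with a shared variance per gene and are not independent. Set side by side, 12 members were higher at both stages (23.1%; 19.2% of all genes tested), 18 were lower at both (34.6%; 17.3% of all genes), and 0 were called in opposite directions (0.934% of all genes; 1 member with a length correction).

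At the 2-cell stage 22 of 52 members were higher (42.3%; background 22.6%) and 15 lower (28.8%; background 26.4%), 37 in all against a background of 49%, with a median of 0.25 beside -0.05 over all genes. Oocyte markers moved with this comparison: 9 of 10 were higher and 0 lower (also 0 at an unadjusted p under 0.05), with a median of 1.64, and their summed level was 7875 and 7675 FPKM under the Btg4-/- label and 2231 and 2060 in wild type. Their part in the result was not tested. Of the ring proteins, 6 of 7 LSm genes were higher and 1 (Lsm2) lower, with a median of 2.48, and 5 of 8 Sm genes were higher and 3 lower, with a median of 1.44. Summed over the 7 LSm genes, the level was 2128 and 2036 FPKM under the Btg4-/- label and 252.8 and 286.2 in wild type. All 3 U2AF genes were higher (0.62 for U2af1, 0.47 for U2af2 and 0.66 for U2af1l4), but 2 with median-of-ratios scaling, a length correction or no filter, 0 in a fit of the 2-cell libraries alone, 2 without library 2 labelled Btg4-/- and 1 without any other single 2-cell library. SR proteins had 2 higher and 5 lower of 10, with 3 lower without wild-type 2-cell library 1. Lsm2 did not pass without wild-type 2-cell library 2 or either library labelled Btg4-/-.

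Lsm5 (chr6:56651057-56654693, mm9) carried the largest difference of any member at any stage, 1228 and 1219 FPKM under the Btg4-/- label and 27.2 and 25.0 in wild type (log2 difference 5.50 ± 0.19 (SE), adjusted p = 6.33e-10). At MII the same gene had been lower, and in the zygote it did not pass (28.7 and 33.4 against 29.0 and 32.3 FPKM). Lsm4 was 109 and 91.7 against 9.80 and 12.9 FPKM (3.04), Lsm3 167 and 141 against 35.9 and 13.5 (2.74) and Lsm7 534 and 476 against 72.0 and 111 (2.48). Snrpg, already the most abundant member, was 2171 and 1882 against 771 and 864 FPKM (1.31). Snrpb2 was 190.1 and 209.5 against 22.6 and 29.6 FPKM (log2 difference 2.90 ± 0.16 (SE), adjusted p = 1.95e-08), and Srsf3 (chr17:29169605-29180317, mm9), an SR protein that also links mRNA to nuclear export, 119 and 105 against 15.6 and 15.5 (log2 difference 2.77 ± 0.12 (SE), adjusted p = 3.37e-09). The genotypes do not overlap in any of these genes.

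The 2-cell members below wild type included genes that wild-type embryos had regained. The same wild-type 2-cell libraries enter both comparisons, so the overlap is not independent support. Snrpd2 was 15.6 and 9.43 FPKM in the libraries labelled Btg4-/- against 44.6 and 67.9 (log2 difference -2.09 ± 0.31 (SE), adjusted p = 1.02e-04), although it had been higher at MII and in the zygote. Snrpb was 8.15 and 8.83 against 30.9 and 42.0 FPKM (-1.96), Srsf11 1.08 and 2.64 against 10.2 and 9.43 (-1.98), Srsf6 1.14 and 1.34 against 6.96 and 7.97 (-1.92), Snrpa1, of the U2 particle, 3.83 and 5.65 against 11.8 and 18.9 (-1.49) and Prpf4 0.612 and 1.31 against 3.75 and 4.75 (-1.44). All 6 are separated between genotypes, which largely follows from naming the largest changes that passed. The count of 15 was 8 without wild-type 2-cell library 2 and 6 in a fit of the 4 libraries alone, which no longer called Prpf4 or Snrpa1; the count of 22 was then 15. Across stages, 10 members were lower at MII and higher at 2-cell (19.2%; 5.69% of all genes tested), 4 were higher and then lower (7.69%; 5.67%), 7 were higher at MII, zygote and 2-cell (13.5%; 8.64%), and 5 were lower at all 3 (9.62%; 4.54%). The last count was 2 without wild-type 2-cell library 2 or 2-cell library 1 labelled Btg4-/-, and 3 without wild-type MII library 2, zygote library 1 or 2-cell library 1, without zygote library 1 labelled Btg4-/-, or with a length correction.

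**Figure D3:**
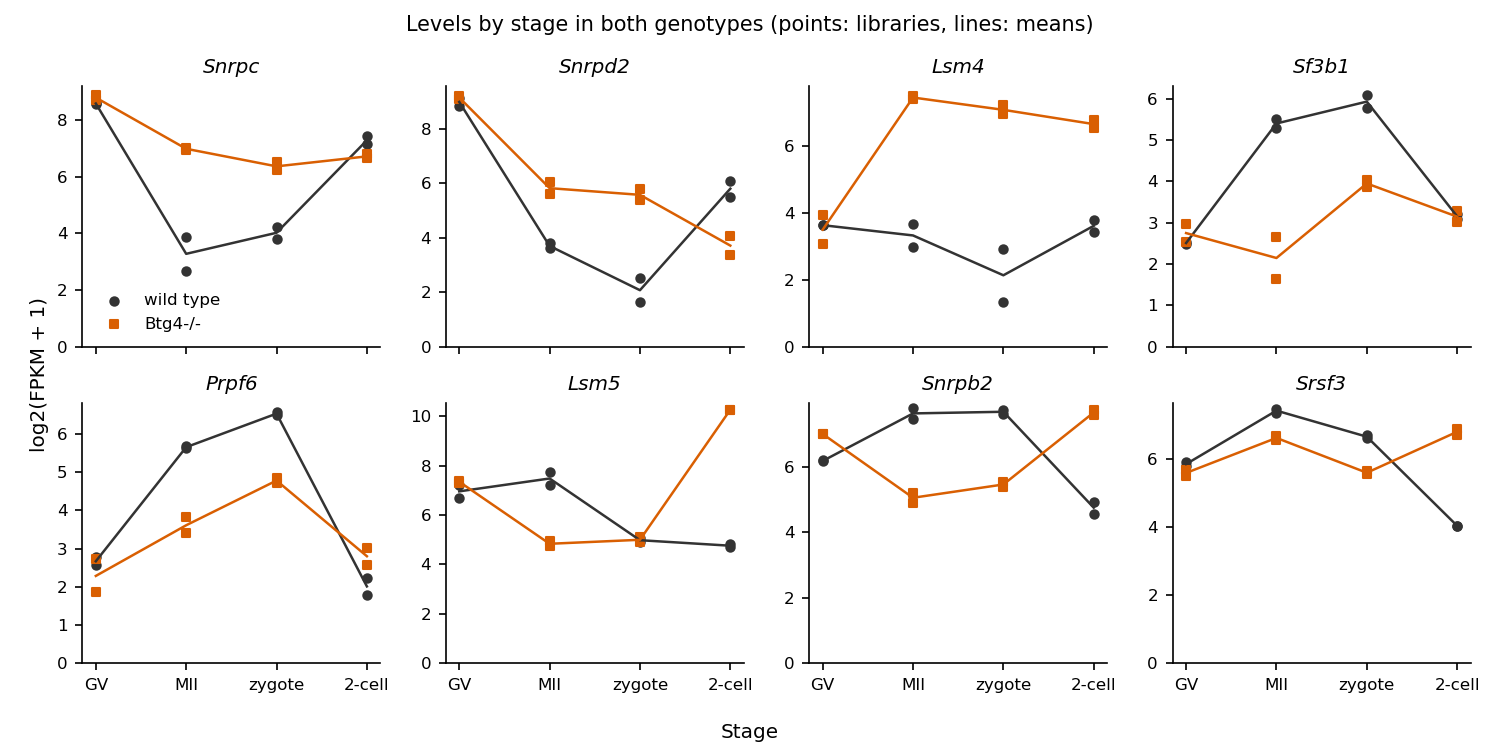
Levels of 8 members, as log2(FPKM + 1), at the 4 stages in wild type (dark circles) and in libraries labelled Btg4-/- (orange squares); points are libraries and lines join group means. Snrpc and Snrpd2 fall deeply and return in wild type, Sf3b1 and Prpf6 rise and fall back in wild type, Sf3b1 lies lower at MII and in the zygote under the Btg4-/- label, and Lsm5, Snrpb2 and Srsf3 end above wild type at 2-cell.

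The same data can be read as the course of each genotype. From GV to MII, 18 of 52 members rose (background 27.3%) and 15 fell (background 18.1%), 33 in all against a background of 45.4%, in the libraries labelled Btg4-/-; median-of-ratios scaling made this 15 and 23. The step itself differed between genotypes, by the interaction term of the same fit, in 33 members (background 42.5%): it was higher under the Btg4-/- label in 14 (background 26.5%) and lower in 19 (36.5% of 52; background 16%). Markers moved with this difference as well. Of the 3 blood cell genes tested the step was lower under the label in 2, with a median of -3.03. That direction is partly built in by the filter. Of the 10 oocyte markers the step was higher in 5 and lower in 2. The part of these markers in the result was not tested. Because wild-type GV and MII libraries enter both the wild-type step and this difference, members chosen by their wild-type step are described without a test. That choice itself enlarges the wild-type medians, so smaller medians under the label are partly built in. The same splits were not counted over all genes. The 21 that rose in wild type had a median step of 1.49 in wild type and 0.60 under the Btg4-/- label, where 10 rose, 2 fell (Lsm5 and Snrpb2) and 9 did not pass. The 17 that fell in wild type had medians of -1.79 and -0.88, and 10 fell, 3 rose (Lsm6, Prpf38a and Sf3b3) and 4 did not pass.

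Lsm4 had the largest positive difference of the step: it rose by 3.95 under the Btg4-/- label, while its wild-type change of -0.31 did not pass, a difference of 4.26 ± 0.59 on the log2 scale (SE), adjusted p = 9.07e-05. Snrpc fell in both, with changes of -5.31 in wild type and -1.81 under the label, a difference of 3.50 ± 0.40 on the log2 scale (SE), adjusted p = 1.89e-05. At the other end, Sf3b1 rose by 2.89 in wild type and changed by -0.60, which did not pass, under the label, a difference of -3.49 ± 0.40 on the log2 scale (SE), adjusted p = 2.02e-05. Snrpb2 rose in wild type and fell under the label, with a difference of -3.39, and Prpf31, which did not pass in wild type (-0.09), rose by 3.14 under the label. Snrpn rose in both (3.18 and 3.26).

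**Figure D4:**
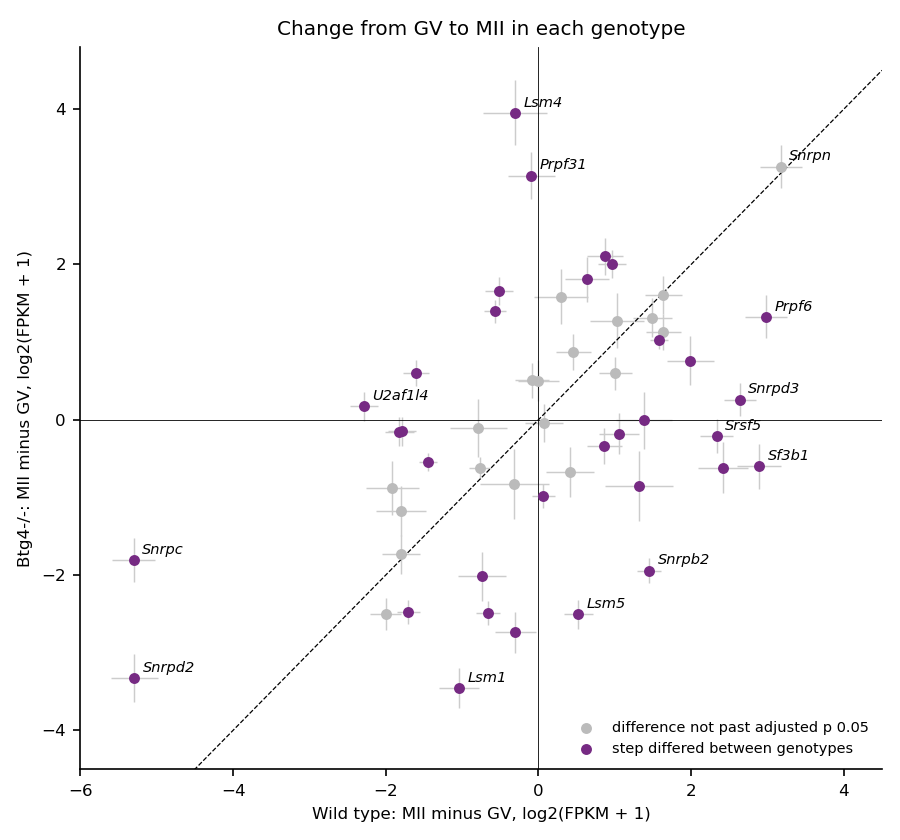
Change from GV to MII of each tested member in wild type (horizontal axis) and in libraries labelled Btg4-/- (vertical axis), as differences of log2(FPKM + 1) with standard errors; the dashed line marks equal change and purple points are the 33 members whose step differed between genotypes. Lsm4 and Prpf31 stand well above the line, Sf3b1, Snrpb2 and Lsm5 below it, and Snrpn lies on it.

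From MII to zygote the libraries labelled Btg4-/- had 9 members that rose (background 10.3%) and 1, Srsf3, that fell (background 5.38%). The rise count was 2 to 5 when single libraries were left out (5 and 3 without MII library 1 or 2 of that label, 2 without either of its zygote libraries), and median-of-ratios scaling made the counts 5 and 6. The step differed between genotypes in 9 members, 5 higher (background 4.95%) and 4 lower (background 7.25%). Of the 3 blood cell genes tested the step was higher under the label in 2, with a median of 3.03. That direction is partly built in by the filter. Of the 10 oocyte markers the step was higher under the label in 5. The part of these markers in the result was not tested. Lsm5 led: it fell in wild type (-2.50) and its change under the label (0.16) did not pass, a difference of 2.66 ± 0.27 on the log2 scale (SE), adjusted p = 7.37e-05. Snrpc, at -1.36, had the largest difference in the other direction. Leaving out single libraries gave 1 to 7 higher and 2 or 3 lower: 1 higher without wild-type MII library 1 or zygote library 2, 2 higher without wild-type MII library 2, MII library 2 labelled Btg4-/- or either zygote library of that label, and 2 lower without any single library except wild-type MII library 1. With a length correction the split was 11 higher and 2 lower, and with median-of-ratios scaling 7 and 3.

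From zygote to 2-cell, 11 members rose (background 18.3%) and 19 fell (background 28.2%) under the Btg4-/- label, 30 in all against a background of 46.5%. The step differed between genotypes in 35 (background 48%): higher in 21 (40.4% of 52; background 22.2%) and lower in 14 (26.9%; background 25.9%). Of the 10 oocyte markers it was higher in 4 and lower in 2; their part in the result was not tested. Members chosen by their wild-type step are again described without a test. The choice itself enlarges their wild-type medians, and the splits were not counted over all genes. Of the 15 that rose in wild type, 3 rose, 1 fell (Snrpd2) and 11 did not pass under the label, with medians of 1.45 and 0.04. Of the 23 that fell in wild type, 14 fell, 3 rose (Snrpb2, Snrpd3 and Srsf3) and 6 did not pass, with medians of -2.00 and -1.04. Snrpd2 rose by 3.73 in wild type and fell by 1.87 under the label, a difference of -5.60 ± 0.43 on the log2 scale (SE), adjusted p = 6.63e-07. Lsm5 did not change past the threshold in wild type (-0.22) and rose by 5.26 under the label, a difference of 5.48 ± 0.27 on the log2 scale (SE), adjusted p = 1.60e-08. Snrpg rose in both, by 3.45 and 4.63.

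Other genes of the pathway, from lists chosen with earlier results of these data known, give the setting. The shares of all genes tested that were higher and lower under the Btg4-/- label were 29.1% and 23.3% at MII, 24.4% and 23.3% in the zygote, and 22.6% and 26.4% at 2-cell, and each count below is to be read beside them. Of 57 further spliceosome proteins, 16 (28.1%) were higher and 22 (38.6%) lower at MII, 15 (26.3%) and 19 (33.3%) in the zygote, and 23 (40.4%) and 12 (21.1%) at 2-cell. Of the hnRNP proteins and other splicing regulators, 27 of 33 tested were lower at MII and 0 higher (limma; also 0 at an unadjusted p under 0.05), with a median of -1.55, and 27 of 33 were lower and 0 higher in the zygote (again 0 unadjusted), with a median of -1.26. With a length correction 1 was higher in the zygote. At 2-cell 14 were lower and 5 higher, with 3 higher without wild-type 2-cell library 1, and 7 lower and 1 higher in a fit of the 2-cell libraries alone. In wild type 22 of these 33 rose from GV to MII (background 25.2%) and 4 fell (background 28.5%), or 2 without GV library 2 or MII library 1. The wild-type MII libraries enter both this step and the MII difference, so these counts are not independent. The RNA-binding protein Qk had the largest deficit of the list at MII, 2.19 and 2.90 against 35.2 and 50.8 FPKM (log2 difference -3.62 ± 0.23 (SE), adjusted p = 4.55e-08).

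Of the further spliceosome proteins, Txnl4a, a small U5 protein, was 168 and 167 against 6.03 and 4.73 FPKM at MII (4.73), and Snrnp48, of the minor spliceosome, 1.68 and 3.45 against 40.1 and 40.5 (-3.58). At 2-cell Zcrb1, also of the minor spliceosome, was 353 and 415 against 29.1 and 49.9 FPKM (3.29), and Ppil1 0.721 and 0.585 against 37.6 and 29.7 (-4.38). Among 16 factors that assemble snRNPs, 6 were higher and 2 lower at MII, 5 and 2 in the zygote, and 4 and 9 at 2-cell. The lower count was 1 at MII without any 1 of its 4 libraries and 1 in the zygote without library 1 labelled Btg4-/-, and the higher count at 2-cell was 2 in a fit of those libraries alone. Smn1, the core of the assembly complex, was 8.54 and 20.9 against 66.3 and 77.8 FPKM at MII (-2.33), and Wdr77, which works with the Sm methylase Prmt5, is listed at 0 in both 2-cell libraries labelled Btg4-/- and was 23.8 and 23.4 in wild type. Of 6 SR protein kinases tested, 3 were lower at MII. There 2 were higher, but 1 without wild-type MII library 2 and 0 without any other MII library, with median-of-ratios scaling or with a length correction. At 2-cell 3 were higher and 0 lower (also 0 at an unadjusted p under 0.05), but 1 in each direction without wild-type library 1. Srpk2 was 2.89 and 3.71 against 30.9 and 32.6 FPKM at MII (-2.93). Of 9 exon junction complex genes, 3 were higher and 3 lower at MII, 4 and 3 in the zygote, and 2 and 5 at 2-cell. The lower count was 5 at MII without wild-type library 1, with median-of-ratios scaling or with a length correction, and 2 at 2-cell without library 2 of either genotype.

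The leading gene of each list in the other direction or stage was as follows. At MII the arginine methylase Prmt7 was 15.6 and 16.8 under the Btg4-/- label against 0.709 and 1.46 FPKM (3.06), the exon junction helicase Eif4a3 259 and 206 against 85.6 and 101 (1.30), Pnn 0.723 and 0.926 against 9.50 and 13.2 (-2.74) and the SR kinase Clk4 2.28 and 2.28 against 1.19 and 1.33 (0.54, adjusted p = 0.0436). The call of Clk4 was lost without wild-type MII library 1 or either MII library labelled Btg4-/-. In the zygote the helicase Ddx39b was 69.6 and 56.3 against 5.599 and 6.70 FPKM (3.16), and its export partner Alyref 33.4 and 47.5 against 12.5 and 10.3 (1.72). Qk, Snrnp48, Smn1, Srpk2 and Pnn again led the lower side there, with -3.73, -4.35, -2.76, -2.69 and -3.41. At 2-cell Hnrnpa1 was 9.99 and 23.5 against 1.92 and 6.52 FPKM (1.81), Khdrbs1 3.17 and 3.46 against 32.5 and 36.1 (-3.03), Gemin6, of the Smn1 complex, 43.4 and 59.8 against 10.1 and 12.9 (2.06), Clk1 30.8 and 29.3 against 8.74 and 8.24 (1.71), Magohb 30.3 and 28.2 against 7.13 and 5.34 (2.07) and Casc3 0.922 and listed at 0 against 6.62 and 8.59.

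The Erk experiment compares oocytes labelled Erk-/- with wild type, with 1 library per group, so values have no replicate check and no test; a change is counted when it is at least 2-fold on the log2(FPKM + 1) scale. Of the 52 members at 1 FPKM or more in at least 1 of the 4 libraries, 7 were higher (background 18.7% of 11404 genes) and 8 lower (background 23.5%) in the GV library labelled Erk-/- than in wild type, a smaller share than the background in both directions. Srsf9 was 25.1 against 3.40 FPKM, Lsm5 167 against 58.4, and Sf3a3 67.6 against 27.0. Srsf7 (9.23 FPKM) and Prpf40b (12.2) are listed at 0 in the wild-type GV library. Lower were Lsm7 (43.8 against 269.8 FPKM), Snrpa (10.4 against 49.5), Snrpb (9.11 against 39.9), Snrpf (13.7 against 55.5) and U2af1l4 (121 against 342).

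At MII, 10 members were higher (background 30.7%) and 3 lower (background 8.08%) in the library labelled Erk-/-, whose Mapk3 is not below wild type. This split depends on scaling: median-of-ratios scaling gave 4 higher and 14 lower, and a length correction 5 and 14, and the all-gene median of this comparison was 0.26. The wild-type MII library of this experiment also has 7265 symbols at 1 FPKM or more, against 8909 to 9253 in the other 3. Of the 10 oocyte markers 6 were at least 2-fold higher and 0 lower in this comparison, with a median of 1.58. Their part in the result was not tested. Lsm6 was 25.1 FPKM in the library labelled Erk-/- against 3.07, Sf3b3 42.0 against 5.75, Lsm2 68.5 against 20.4 and Prpf8, the scaffold of the catalytic core, 27.9 against 9.67. Snrpd2 was 29.1 FPKM and is listed at 0 in the wild-type library. Lower were Srsf6 (1.18 against 6.51 FPKM), Snrpa (9.68 against 29.8) and Srsf4 (66.3 against 138).

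From GV to MII, 12 members were higher (background 20.4%) and 16 lower (background 46.9%) in wild type, and 10 and 12 in the libraries labelled Erk-/- (background 23.9% and 33.4%). In wild type the all-gene median was -0.76, and with median-of-ratios scaling the split was 23 higher and 12 lower, and with a length correction 24 and 12. Of the 10 oocyte markers 1 was higher and 7 lower in wild type, with a median of -2.14. Under the Erk-/- label 1 was higher and 5 lower, with a median of -0.85. Their part in the result was not tested. By role in wild type, the PRPF factors had 1 higher and 6 lower of 12, and the SR proteins 4 higher and 0 lower of 10. In the Btg4 experiment 8 PRPF factors rose and 1 fell, and 2 SR proteins rose and 4 fell. Those counts are by adjusted p with no fold cut, so they are on another measure than the 2-fold counts here. The PRPF sets differ too: Prpf40b is counted only here and Prpf4 only in the Btg4 experiment. With median-of-ratios scaling the 2-fold counts were 4 and 4 for the PRPF factors and 8 and 0 for the SR proteins, and with a length correction 3 and 4, and 8 and 0. Lsm2, Prpf19 and Prpf8 rose in wild type of the Btg4 experiment (0.87, 0.97 and 1.02) and were lower at MII here, with differences of -2.60, -2.28 and -1.24 (-1.79, -1.55 and -0.47 with median-of-ratios scaling). Of the members named above for large gains there, Sf3b1 and Snrpd3 were higher here by 1.15 and 1.26, without rescaling. Prpf6 (0.61) and Srsf5 (0.95) stayed under the 2-fold cut, and Snrpn went the other way (-0.93, also under the cut). Agreement between the experiments was not counted over all members. In both experiments Snrpc, Snrpb and U2af1l4 were lower at MII: Snrpc 127 then 4.35 FPKM, Snrpb 39.9 then 1.67 and U2af1l4 342 then 26.9. Snrpd2 was 178 FPKM at GV and is listed at 0 at MII. Sf3b3 was 54.5 then 5.75. U2af1 was higher at MII, 71.4 then 221, as was Lsm5 (58.4 then 168). Srsf7 and Srsf11, listed at 0 at GV, were 30.01 and 5.93 FPKM at MII. In the libraries labelled Erk-/- Snrpd2 went from 252 to 29.1 FPKM, Prpf31 from 21.9 to 3.21, Srsf9 from 25.1 to 3.92, Snrpf from 13.7 to 125 and Lsm7 from 43.8 to 250.0.

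**Figure D5:**
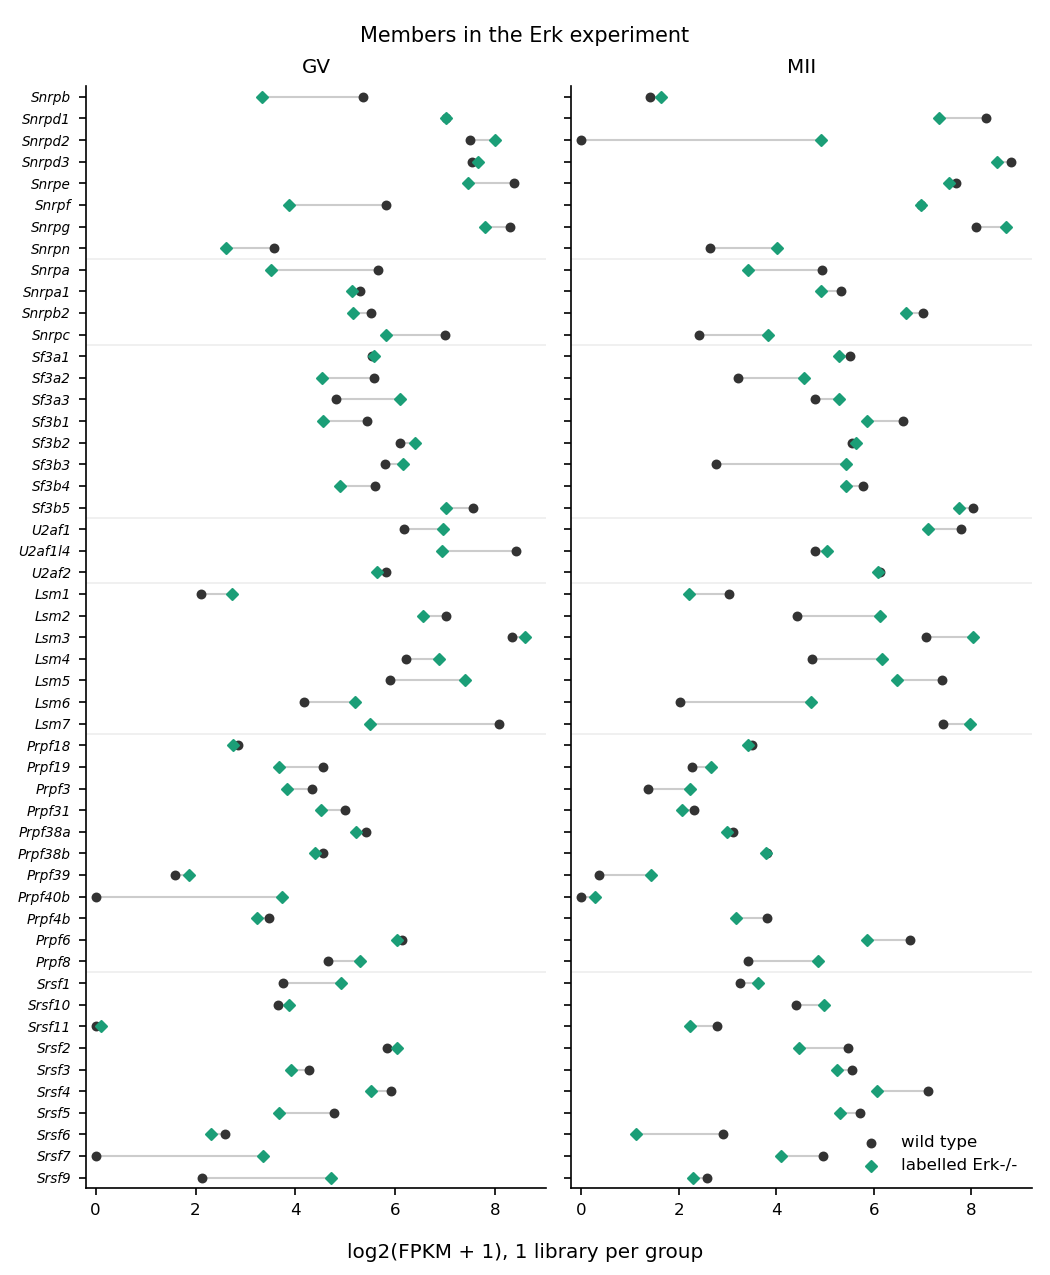
Level of 51 of the 52 members with at least 1 FPKM in at least 1 library of the Erk experiment, as log2(FPKM + 1), in wild type (dark circles) and in libraries labelled Erk-/- (green diamonds) at GV (left) and MII (right), 1 library per point. Grey lines join the 2 libraries of a gene; the longest is Snrpd2 at MII, listed at 0 in wild type.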

How the data were processed

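The deposited tables give FPKM per locus, with an interval and a status, which the authors made with CASAVA 1.8, TopHat and Cufflinks on mm9, per the submitters' processing notes; the versions of the last 2 and the annotation release were not stated there. FPKM is relative within a library. Loci sharing a symbol were summed (260 symbols). For testing, FPKM plus 1 was put on a log2 scale and fitted by limma 3.58.1 (R 4.3.3): a group-means fit over the 16 Btg4-experiment libraries (8 residual degrees of freedom), moderated variances with a trend, two-sided Benjamini-Hochberg adjusted p over 12311 genes with a group mean of 1 FPKM or more, threshold 0.05. A fold on this scale understates the change of low genes. The fit was also run on simulated data for the MII genotype comparison only, which does not check the steps or the other stages. No 2 libraries hold identical values. The Erk libraries were compared by fold only.

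Members and lists were chosen with earlier results of these data known. Genes named are, per comparison and direction, up to 6 members with the largest change among those that passed (up to 5 past 2-fold in the Erk experiment), the member with the highest mean per role, and the leading gene of each other list. Others are named for counts. The share of all genes whose libraries do not overlap was not counted, so a lack of overlap in named genes only describes them. 1 member that the rule names and 1 other gene are not reported here; the member stays in all counts and medians. Alternatives were a pseudocount of 0.1, no filter or a filter at 5 FPKM, median-of-ratios scaling, a length correction (52 of 52 members and 93.7% of tested genes had a length), a replicate block, fits of only the groups compared, leaving out each library and, chosen after seeing the data, the interval midpoint. Sequences are from GENCODE M21 (GRCm38).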

Additional observations from a re-analysis of the deposited data

Results flagged for a closer look

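The change between stages differed between genotypes by the interaction term for these results. From GV to MII the step was higher in the libraries labelled Btg4-/- for 14 members and lower for 19, with Lsm4 (4.26 on the log2 scale) and Sf3b1 (-3.49) at the ends. From MII to zygote it was higher for 5 and lower for 4, with Lsm5 (2.66) and Snrpc (-1.36) at the ends. From zygote to 2-cell it was higher for 21 and lower for 14, with Lsm5 (5.48) and Snrpd2 (-5.60) at the ends. Groups of 2 libraries allow no check for single outlying samples.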

How the results depend on the processing

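No called member changed direction under any alternative run. Over the settings other than leaving out a library, 2736 of 2891 called results of single members also passed and 155 did not. Calls of members that a setting left untested, as with the filter at 5 FPKM, are not in this total. Settings were unlike: for wild-type MII to zygote, the fit of only the groups compared kept 8 calls and lost 14. With single libraries left out, 1496 of 1760 also passed and 264 did not. Of 168 counts for roles and other lists, 65 moved by more than 1.5 times under at least 1 setting and 51 when a single library was left out. The counts over all members that moved so far were these. Median-of-ratios scaling gave 4 higher and 0 lower at GV, 23 lower for GV to MII under the Btg4-/- label, 5 higher and 6 lower for its MII to zygote step, 16 lower for that step in wild type, 4 higher and 14 lower for the library labelled Erk-/- at MII, and 23 higher for wild-type GV to MII in the Erk experiment. It moved the median of all genes by over 0.1 at GV (-0.12 to 0), for GV to MII (0.14 to -0.02) and zygote to 2-cell (-0.17 to -0.05) under the label, for wild-type MII to zygote (0.22 to 0.04) and for the genotype difference in GV to MII (0.22 to 0.04). The length correction gave 0 lower at GV, 4 lower for MII to zygote under the label, 11 higher and 2 lower for the genotype difference in that step, 5 higher and 14 lower for Erk-/- at MII, and 24 higher for the wild-type Erk-experiment step. Fits of only the groups compared gave 6 lower at 2-cell, 0 in both directions at GV, 4 higher and 2 lower for MII to zygote under the label, and 5 higher and 3 lower for it in wild type. No filter gave 2 lower for that step under the label and 3 higher for the genotype difference; the filter at 5 FPKM gave 2 lower. Single libraries left out gave 8 to 12 lower at 2-cell, 0 to 1 in both directions at GV, 2 to 5 higher for MII to zygote under the label, and 1 to 7 higher and 2 to 3 lower for the genotype difference in that step. The cause was not tested. All 3 GV calls were lost in the fit of GV libraries alone.

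Same-numbered libraries of the 2 genotypes did not deviate together (correlations -0.01, 0.02, 0.05 and 0.02), so the numbers were not taken as pairs. With a replicate block, MII to zygote under the Btg4-/- label had 2 members lower in place of 1, and every called member still passed. With 2 libraries per group, small differences cannot be resolved, and the fragment depth makes values of a few FPKM the least precise.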

Other observations

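The wild-type GV oocytes of the 2 experiments carry the same strain and stage labels, and their members differ in level. Sf3b2 was 3.37 and 5.05 FPKM in the 2 libraries of the Btg4 experiment and 67.1 in that of the Erk experiment. Prpf6 was 5.83 and 4.93 against 69.1 FPKM, Sf3b1 4.56 and 4.80 against 42.4 and Lsm4 11.4 and 11.4 against 73.3. In the other direction, Lsm1 was 28.3 and 27.6 against 3.32 FPKM, Lsm3 846 and 807 against 323, and Srsf7 was 47.3 and 50.3 and is listed at 0. These are values with no test, with 1 library on one side. The genes are examples, and the difference was not counted over all genes, so it is not shown to be particular to the members. Summed granulosa and cumulus markers were 76.97 and 89.45 FPKM in the Btg4 experiment and 28.9 in the Erk experiment. Oocyte markers summed to 10190 and 9406 against 16780 FPKM. Estimated depth was 5220000 and 3940000 against 9900000 fragments. The part of these in the difference was not tested.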
